A study of Mus musculus with 6 samples.

Results

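The Cyp3a and Cyp2d families of cytochrome P450 genes were examined in mouse liver RNA through 9 named members, Cyp3a11, Cyp3a13, Cyp3a25, Cyp3a59, Cyp2d9, Cyp2d10, Cyp2d22, Cyp2d26 and Cyp2d40, which were taken by name from a table of 29734 genes. All 9 passed the filter on low counts, which kept 18931 genes. The livers came from male mice that began a WD (the label's abbreviation of the diet) at 8 weeks of age and stayed on it for 20 weeks. The first group carried the genotype labelled Prdx1C52S, written Prdx1 C52S here, which replaces cysteine 52 of peroxiredoxin 1 with serine (libraries 1, 2 and 4), and the other group was labelled WT (libraries 6, 8 and 9). Male sex, liver and the diet were shared by all 6 libraries, so no value here comes from another diet or from females. The labels used here do not give the zygosity, the strain, or whether each library is 1 animal, so the p-values measure the spread between these libraries, which may be technical. Peroxiredoxin 1 is a peroxide-reducing enzyme, and the substitution itself cannot be checked from gene-level values.

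Cytochrome P450 enzymes are heme proteins of the endoplasmic reticulum that insert an oxygen atom into drugs, steroids and other lipids, with electrons passed on by P450 oxidoreductase and, for some reactions, cytochrome b5. The Cyp3a enzymes are known for hydroxylating steroids and many drugs, and in liver Cyp3a11 is the classic target of the nuclear receptor PXR (gene Nr1i2), with CAR (Nr1i3) acting on an overlapping set of genes. The mouse Cyp2d genes form a cluster related to human CYP2D6, and Cyp2d9 is the classic male-dependent steroid 16-alpha hydroxylase of mouse liver, controlled by growth hormone. Levels are given as FPKM, fragments scaled to sequencing depth and to a length whose basis is not given in the sources used here. Differences are given as log2 fold changes of Prdx1 C52S over WT from edgeR's quasi-likelihood test on the estimated counts. Adjusted p-values are by Benjamini-Hochberg over all 18931 genes.

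The deposited counts summed to between 60326469 and 76164949 per library. The 9 members together took between 0.411% and 0.512% of summed FPKM, and their counts ran from 919 for Cyp2d40 in WT 8 to 474086 for Cyp3a11 in the same library. Summed over 9 hepatocyte markers such as Alb and Apoa1, the level was 29994 to 32680 FPKM in Prdx1 C52S libraries and 28128 to 29645 FPKM in WT libraries, so the labelled tissue's markers were abundant in every library. WT 8 stood apart from the other libraries in measures that leave the members out or give them little weight: its TMM scaling factor was 1.28, against 0.883 to 0.920 in Prdx1 C52S libraries and 1.03 to 1.04 in the other WT libraries. Its summed level of 11 pericentral hepatocyte markers was 932 FPKM, against 3424 to 4286 FPKM in Prdx1 C52S libraries and 2703 to 2878 FPKM in WT 6 and WT 9. Summed over 10 cholangiocyte markers, WT 8 had 862 FPKM, against 64.3 to 134 FPKM in Prdx1 C52S libraries and 234 to 363 FPKM in the other WT libraries. Spp1 made up most of this sum in every library, with 736 FPKM in WT 8. Epcam, the next highest there, had 39.7 FPKM in WT 8. It had 1.16 to 2.77 FPKM in Prdx1 C52S libraries and 4.37 to 6.99 FPKM in the other WT libraries. Values are therefore given with and without WT 8 where it matters. In bulk RNA, fewer cells of a type and less RNA per cell cannot be told apart.

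The members lie on chromosomes 5 and 15 (coordinates from the deposited table, which equal those of GRCm38). Cyp3a13 (ENSMUSG00000029727) is at chr5:137892932-137921619 on the minus strand, apart from Cyp3a11 (ENSMUSG00000056035) at chr5:145854426-145879964, minus strand, Cyp3a25 (ENSMUSG00000029630) at chr5:145977194-146009618, minus strand, and Cyp3a59 (ENSMUSG00000061292) at chr5:146079257-146113287, plus strand. On chromosome 15, Cyp2d22 (ENSMUSG00000061740) is at chr15:82370527-82380260, Cyp2d10 (ENSMUSG00000094806) at chr15:82402846-82407195, Cyp2d40 (ENSMUSG00000068083) at chr15:82759833-82764183 and Cyp2d26 (ENSMUSG00000022445) at chr15:82790101-82794294, each on the minus strand, while Cyp2d9 (ENSMUSG00000068086) is at chr15:82433437-82456845 on the plus strand. Cyp2d22, Cyp2d10 and Cyp2d9 thus lie close together at the low end of the cluster, and Cyp2d40 and Cyp2d26 lie at its high end.

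Reads from such genes can be assigned to the wrong relative. Between the coding sequences of Cyp3a25 and Cyp3a59, 1471 of 1509 bases were identical (97.48%), and between Cyp2d10 and Cyp2d9 the identity was 92.46%. The other Cyp3a members were more distant, at 76.3% to 76.5% identity between Cyp3a13 and the rest and 76.1% between Cyp3a11 and Cyp3a25. Cyp3a11 had its closest relatives outside the members, with 95.2% identity to Cyp3a41a, 95.0% to Cyp3a41b and 94.9% to Cyp3a44. Over whole 150-base stretches, the read length, the overlap was small. Of all such stretches in the Cyp2d10 transcript, 6.4% were also found in another gene, mostly in Cyp2d11, and the share was 1.54% for Cyp2d9, 0.70% for Cyp3a25 and 0.71% for Cyp3a59. The other 5 members shared no 150-base stretch with another gene. Values of Cyp2d10, Cyp2d9, Cyp3a25 and Cyp3a59 are uncertain for this reason, by an amount that these shares do not bound. The shares leave out reads placed with mismatches and the level of the gene that shares a stretch. Cyp3a59, for one, averaged 17.0 FPKM over all libraries, against 228 FPKM for Cyp3a25. Cyp2d9 also overlaps the pseudogenes Gm46501 and Gm49421 on its own strand and Gm49419 on the opposite strand. Cyp3a13 overlaps the pseudogene Gm15502 on its own strand. The sources used here do not say whether strand was used in counting.

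The promoters of 6 members are printed to show which carry a nuclear-receptor word of the same pattern before the start and which do not. The letters of the word differ between some members. Each line holds the 250 bases before the RefSeq start, 5′ to 3′ on the gene's strand, from RefSeq on GRCm38.p6, the first listed start being used where a gene has several. The windows are chr15:82407195-82407444 on the minus strand for Cyp2d10, chr15:82452127-82452376 on the plus strand for Cyp2d9, chr15:82794246-82794495 on the minus strand for Cyp2d26, chr5:146009619-146009868 on the minus strand for Cyp3a25, chr5:145879855-145880104 on the minus strand for Cyp3a11 and chr5:137921620-137921869 on the minus strand for Cyp3a13. Capitals mark AGNNCANAGNNCA, a direct repeat with 1 base between its copies, of the kind HNF4A binds, and in Cyp3a11 they mark AGNNCANNNNAGNNCA, a direct repeat with 4 bases between.
Cyp2d10: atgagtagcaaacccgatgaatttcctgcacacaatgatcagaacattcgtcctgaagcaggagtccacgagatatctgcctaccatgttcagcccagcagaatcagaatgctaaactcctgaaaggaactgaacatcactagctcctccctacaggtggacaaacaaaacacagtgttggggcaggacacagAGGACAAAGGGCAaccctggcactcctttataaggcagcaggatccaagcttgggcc
Cyp2d9: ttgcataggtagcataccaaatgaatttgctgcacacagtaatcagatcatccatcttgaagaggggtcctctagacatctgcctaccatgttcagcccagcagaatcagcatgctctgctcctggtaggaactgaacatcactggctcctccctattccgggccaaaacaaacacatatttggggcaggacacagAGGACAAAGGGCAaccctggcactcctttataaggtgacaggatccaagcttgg
Cyp2d26: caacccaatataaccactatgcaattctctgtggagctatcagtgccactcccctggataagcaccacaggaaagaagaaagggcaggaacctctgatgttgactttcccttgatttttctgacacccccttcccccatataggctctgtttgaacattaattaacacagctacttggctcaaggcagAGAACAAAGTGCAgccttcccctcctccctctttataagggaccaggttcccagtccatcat
Cyp3a25: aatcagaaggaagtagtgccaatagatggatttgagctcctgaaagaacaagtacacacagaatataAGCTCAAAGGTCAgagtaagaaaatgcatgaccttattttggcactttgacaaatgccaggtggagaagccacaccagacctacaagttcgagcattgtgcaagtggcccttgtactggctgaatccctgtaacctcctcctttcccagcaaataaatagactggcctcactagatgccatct
Cyp3a11: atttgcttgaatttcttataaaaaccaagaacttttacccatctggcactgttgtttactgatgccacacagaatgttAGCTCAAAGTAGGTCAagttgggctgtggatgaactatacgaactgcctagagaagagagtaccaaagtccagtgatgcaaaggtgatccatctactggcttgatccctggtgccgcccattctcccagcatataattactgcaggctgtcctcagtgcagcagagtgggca
Cyp3a13: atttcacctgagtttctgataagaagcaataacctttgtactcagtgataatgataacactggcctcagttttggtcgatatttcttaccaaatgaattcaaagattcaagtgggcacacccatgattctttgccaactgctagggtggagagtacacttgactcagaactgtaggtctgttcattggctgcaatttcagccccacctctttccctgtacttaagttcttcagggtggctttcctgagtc

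Searched on both strands, AGNNCANAGNNCA was found in 6 of the 8 members with a RefSeq window, against 617 of all 27025 windows of the same length (2.28%). Cyp2d10, Cyp2d9 and Cyp2d40 carried the identical word AGGACAAAGGGCA, starting 57, 54 and 117 bases before the start. Cyp2d26 carried AGAACAAAGTGCA 62 bases before it, and Cyp3a25 and Cyp3a59 shared AGCTCAAAGGTCA at 183 and 184 bases. Cyp3a11 and Cyp3a13 had no match in these windows. Distances are from the RefSeq start, which can differ from the gene ends given above. The Cyp2d40 window, chr15:82764123-82764372, reaches into its gene span, which ends at 82764183. The windows of Cyp3a11, Cyp2d9 and Cyp2d26 also reach into the spans given for those genes. AGNNCANNNAGNNCA, the spacing bound by PXR with its partner RXR, was found in Cyp2d9 and Cyp2d10 (1.48% of all windows), where its second copy overlaps the direct repeat just named. AGNNCANNNNAGNNCA was found in Cyp3a11, as AGCTCAAAGTAGGTCA (1.42% of all windows). The STAT5 word TTCNNNGAA (7.18% of all windows) and the antioxidant response word TGACNNNGC (10.2%) were found in none of the 8. The first motif was picked after the windows had been read, and the members share ancestry: the windows of Cyp3a25 and Cyp3a59 were 95.6% identical and those of Cyp2d10 and Cyp2d9 85.0%. A match describes letters and is no measured binding.

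Across all 6 libraries the members spanned a wide range of levels. Cyp3a11 led with a mean of 703 FPKM, followed by Cyp2d26 at 318, Cyp2d10 at 256, Cyp3a25 at 228 and Cyp2d9 at 204 FPKM. Below them came Cyp2d22 at 49.8, Cyp3a13 at 41.0, Cyp2d40 at 26.7 and Cyp3a59 at 17.0 FPKM. Cyp3a11 exceeded Cyp2d26 in 6 of 6 libraries, Cyp2d26 exceeded Cyp2d10 in 6, and Cyp2d9 exceeded Cyp2d22 in 6. Cyp2d10, Cyp3a25 and Cyp2d9 were not separated as neighbours, since Cyp2d10 exceeded Cyp3a25 in 4 libraries and Cyp3a25 exceeded Cyp2d9 in 3, and the lowest 4 changed places between libraries too. The deposited count divided by FPKM and by the length of all annotated exons was nearly the same for every member (82.8 to 82.9 per kilobase), so counts and FPKM differ by that length. That length is 5093 bases for Cyp3a11, whose main transcript has 2344, so its level relative to the others may be understated.

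**Figure D1:**
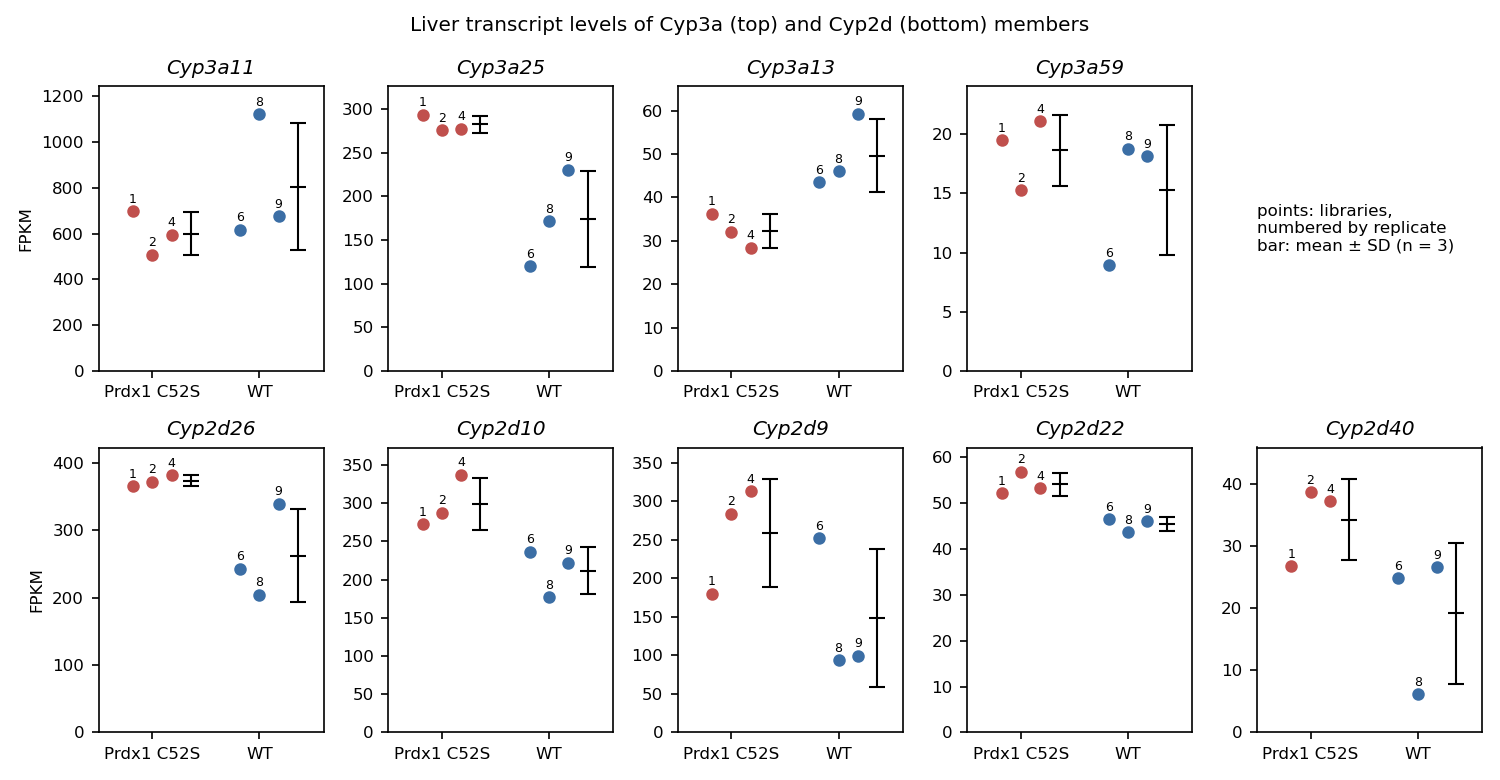
Level of each of the 9 members in every library, in FPKM on an axis from 0 in each panel, Cyp3a members in the upper row and Cyp2d members in the lower, with Prdx1 C52S libraries left of WT libraries, points numbered by replicate and bars for mean ± SD (n = 3). WT 8 is the highest library for Cyp3a11 at 1123 FPKM and the lowest for Cyp2d40 at 6.13 FPKM. All Prdx1 C52S points lie above all WT points for Cyp3a25, Cyp2d26, Cyp2d10, Cyp2d22 and Cyp2d40, as for 6.09% of all genes tested. For Cyp3a13 all lie below, as for 36.7% of all genes tested.

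Compared between the groups, most members lay higher in Prdx1 C52S livers, Cyp3a13 lay lower, Cyp3a11 lay slightly lower except without WT 8 or with voom weights, and none passed the test at an adjusted p of 0.05. Of the 9 members, 7 had a positive log2 fold change, against 47% of all genes tested, and the members' median was 0.77, against -0.03 over all genes. Calls at adjusted p under 0.05 numbered 0 of 9 members higher and 0 lower, and the background was 0% of all genes in each direction. At an unadjusted p under 0.05, 4 members were higher (Cyp3a25, Cyp2d26, Cyp2d10 and Cyp2d22), against 11.5% of all genes, and 0 were lower, against 14.8%. DESeq2 called 4 members higher at adjusted p under 0.05, against 7.39% of all genes, and 0 lower, against 9.1%. Limma's voom with library weights called those 4 higher as well, against 5.4%, and 0 lower, against 5.31%. Without WT 8, edgeR called Cyp2d10 and Cyp2d22 higher, against 2.7% of all genes, and 0 members lower, against 1.94%. Without WT 9 it called Cyp3a25 alone higher, against 0.321%, and 0 lower, against 0.351%. Scaling mattered to the size of these values. With library totals as the only scaling the median of all genes moved to -0.34, and relative to that median Cyp3a25 stood at 1.03, Cyp2d26 at 0.84, Cyp2d10 at 0.83, Cyp2d22 at 0.58, Cyp3a11 at -0.09 and Cyp3a13 at -0.29. With quantile scaling the same values relative to the median of all genes were smaller for these 4 higher members, 0.56 for Cyp3a25, 0.34 for Cyp2d26, 0.29 for Cyp2d10 and 0.21 for Cyp2d22, and Cyp3a11 stood at -0.52. With all 6 libraries and TMM scaling they were 1.01, 0.80, 0.80, 0.57 and -0.07 for the same genes in that order. Cyp2d40 went the other way, at 1.32 with quantile scaling, against 1.09 with TMM scaling.

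**Figure D2:**
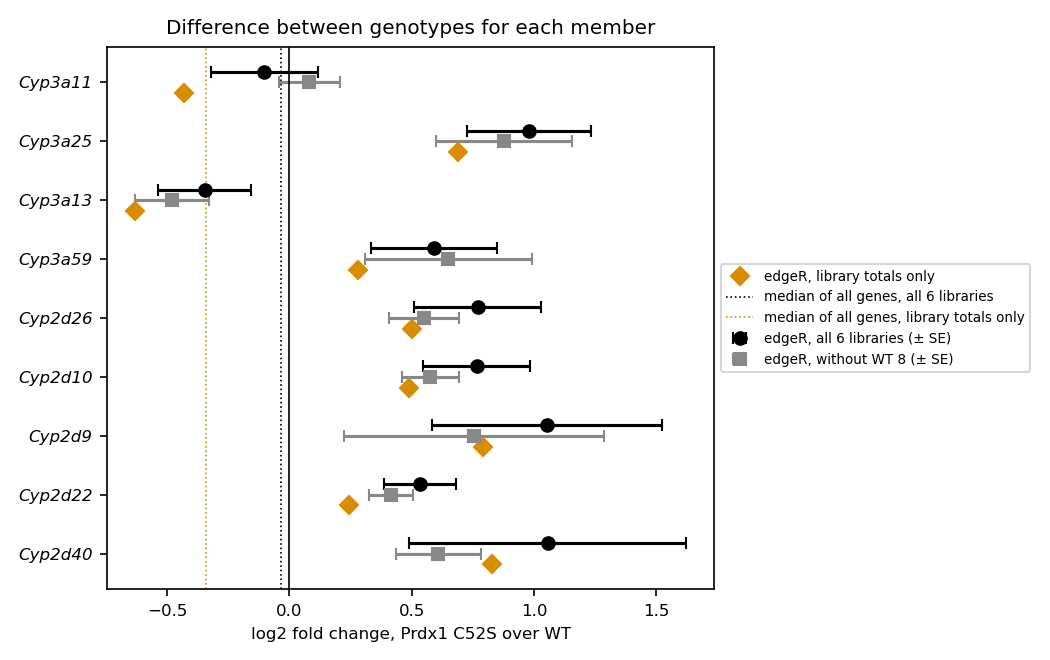
Log2 fold change of Prdx1 C52S over WT for each member from edgeR, with all 6 libraries (circles ± SE), without WT 8 (squares ± SE) and with library totals as the only scaling (diamonds), and dotted lines at the median of all genes, -0.03 in the fit of all libraries and -0.34 with library totals. Cyp3a11 lies at -0.10 with all 6 libraries, at 0.08 without WT 8 and at -0.43 with library totals, Cyp3a13 lies below 0, and the other 7 members lie above 0 in all 3 settings.

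Cyp3a11, the main PXR-inducible drug and steroid hydroxylase of mouse liver, had 698, 508 and 596 FPKM in Prdx1 C52S livers, against 617, 1123 and 677 FPKM in WT livers. The groups overlapped, and the highest value belonged to WT 8. Means were 601 ± 95.0 FPKM in Prdx1 C52S and 806 ± 276 FPKM in WT livers (SD, n = 3 each), with a log2 fold change of -0.10 (SE 0.22, edgeR adjusted p = 0.797). Without WT 8 the value was 0.08 (SE 0.13, edgeR adjusted p = 0.765), so the direction rests on that library.

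Cyp3a25, a second Cyp3a enzyme of adult liver, had 293, 276 and 277 FPKM in Prdx1 C52S livers, against 120, 171 and 230 FPKM in WT livers. Every Prdx1 C52S library lay above every WT library, and the Prdx1 C52S values were close together while the WT values were spread. Means were 282 ± 9.67 FPKM in Prdx1 C52S and 174 ± 55.2 FPKM in WT livers (SD, n = 3 each). edgeR put the log2 fold change at 0.98 (SE 0.25, adjusted p = 0.0965), and it stayed positive, between 0.59 and 1.32, under all 16 alternatives tried.

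Cyp3a59, the near-copy of Cyp3a25 beside it, is less well known. It had 19.5, 15.3 and 21.1 FPKM in Prdx1 C52S livers, against 8.94, 18.8 and 18.1 FPKM in WT livers. The groups overlapped and WT 6 alone was low. edgeR put the log2 fold change at 0.59 (SE 0.26, adjusted p = 0.198), and without WT 6 it was 0.35.

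Cyp3a13, a Cyp3a gene also expressed in intestine, had 36.3, 32.1 and 28.4 FPKM in Prdx1 C52S livers, against 43.5, 46.1 and 59.3 FPKM in WT livers. In FPKM every Prdx1 C52S library lay below every WT library, the only member for which this held, but 36.7% of all genes tested did the same. On TMM-scaled CPM, counts scaled to library depth and composition, the values were 129, 118 and 103 in Prdx1 C52S livers and 138, 118 and 190 in WT livers, and the groups overlapped. edgeR put the log2 fold change at -0.35 (SE 0.19, adjusted p = 0.286). Without WT 9, the highest library, it was -0.13.

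Cyp2d26, a hepatic Cyp2d enzyme and the most abundant of the Cyp2d members, had 366, 372 and 382 FPKM in Prdx1 C52S livers, against 243, 204 and 339 FPKM in WT livers. The groups did not overlap, although WT 9 came close to the Prdx1 C52S values. Means were 373 ± 8.16 FPKM in Prdx1 C52S and 262 ± 69.3 FPKM in WT livers (SD, n = 3 each). edgeR put the log2 fold change at 0.77 (SE 0.26, adjusted p = 0.128), and 0.55 without WT 8 (edgeR adjusted p = 0.0714).

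Cyp2d10 had 273, 288 and 337 FPKM in Prdx1 C52S livers, against 236, 177 and 222 FPKM in WT livers. All Prdx1 C52S libraries were above all WT libraries, of which WT 8 was the lowest. Means were 299 ± 33.8 FPKM in Prdx1 C52S and 212 ± 31.0 FPKM in WT livers (SD, n = 3 each), with a log2 fold change of 0.77 (SE 0.22, edgeR adjusted p = 0.107). Leaving out WT 8 lowered the value to 0.58 and the edgeR adjusted p to 0.0397.

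Cyp2d22, often used as the mouse counterpart of human CYP2D6, varied little within both groups. It had 52.1, 56.9 and 53.3 FPKM in Prdx1 C52S livers, against 46.5, 43.7 and 46.1 FPKM in WT livers. The groups did not overlap, and the difference between them was smaller than for Cyp2d26 or Cyp2d10. Means were 54.1 ± 2.48 FPKM in Prdx1 C52S and 45.4 ± 1.55 FPKM in WT livers (SD, n = 3 each), with a log2 fold change of 0.53 (SE 0.15, edgeR adjusted p = 0.102). Without WT 8 it was 0.42 (edgeR adjusted p = 0.0452).

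Cyp2d9, the male-dependent steroid hydroxylase, had 180, 284 and 313 FPKM in Prdx1 C52S livers, against 253, 93.7 and 99.8 FPKM in WT livers. Its groups overlapped: Prdx1 C52S 1 lay below WT 6, and WT 8 and WT 9 were both low. Means were 259 ± 70.0 FPKM in Prdx1 C52S and 149 ± 90.1 FPKM in WT livers (SD, n = 3 each). edgeR put the log2 fold change at 1.05 (SE 0.47, adjusted p = 0.206), with 1.75 when WT 6 was left out and 0.75 when WT 8 was.

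Cyp2d40, whose main annotated transcript carries a coding sequence of 1014 bases against 1500 to 1512 for the other Cyp2d members, was the lowest of them. It had 26.8, 38.7 and 37.2 FPKM in Prdx1 C52S livers, against 24.8, 6.13 and 26.6 FPKM in WT livers. The groups only just failed to overlap, and WT 8 was far below the rest. edgeR put the log2 fold change at 1.06 (SE 0.57, adjusted p = 0.281), or 0.61 once WT 8 was left out (edgeR adjusted p = 0.0971).

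By position against the other group, 5 members (Cyp3a25, Cyp2d26, Cyp2d10, Cyp2d22 and Cyp2d40) had every Prdx1 C52S library above every WT library in FPKM, against 6.09% of all genes tested. On TMM-scaled CPM the same 5 did so, against 16.9% of all genes, and no member was separated downward, against 18%.

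The other 16 rows of the 2 families were mostly low. Cyp2d37-ps, a pseudogene with 44.1 ± 2.09 FPKM in Prdx1 C52S and 39.3 ± 8.34 FPKM in WT livers (SD, n = 3 each), and Cyp2d38-ps, with 19.5 ± 1.44 FPKM in Prdx1 C52S and 17.8 ± 4.99 FPKM in WT livers, were the highest of them. Cyp2d11, the coding neighbour most alike to Cyp2d10, had 9.23, 18.8 and 6.09 FPKM in Prdx1 C52S livers, against 8.21, 1.82 and 7.66 FPKM in WT livers. Its log2 fold change was 1.17 with an edgeR adjusted p of 0.313, and WT 8 was again the lowest library. Cyp2d36-ps averaged 2.66 FPKM in Prdx1 C52S and 2.23 FPKM in WT livers. Cyp3a41b averaged 0.622 FPKM in Prdx1 C52S and 1.44 FPKM in WT livers, and Cyp3a44 reached 4.004 FPKM in WT 8 and stayed under 1 FPKM elsewhere. Cyp3a41b and Cyp3a44 belong to the female-dependent Cyp3a genes of mouse liver, and the rows not named here averaged under 1 FPKM in each group.

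Reads that moved from a summed member to another stay in the sum, though FPKM weights them by the length of each gene. Reads that moved to relatives outside the members, such as Cyp2d11 or Cyp3a41a, leave it. The 4 Cyp3a members summed to 1047, 832 and 923 FPKM in Prdx1 C52S livers, against 790, 1359 and 985 FPKM in WT livers, and the groups overlapped. The difference in mean log2 sum was -0.13 (exact two-sided permutation test over 6 libraries, p = 0.7), and it was 0.08 without WT 8. The 5 Cyp2d members summed to 897, 1039 and 1123 FPKM in Prdx1 C52S livers, against 803, 525 and 734 FPKM in WT livers. Each Prdx1 C52S sum lay above each WT sum, with WT 8 lowest, and the difference was 0.59 on the log2 scale (exact two-sided permutation test, p = 0.1, the smallest that 3 against 3 libraries allow). Over all 9 rows named Cyp3a the difference in mean log2 sum was -0.13, and over all 16 rows named Cyp2d it was 0.56.

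The make-up of the Cyp3a sum was compared next. Cyp3a11 made up 66.7%, 61.1% and 64.6% of the 4 Cyp3a members in Prdx1 C52S livers, against 78.1%, 82.6% and 68.8% in WT livers. Cyp3a25 made up 28.0%, 33.2% and 30.0% in Prdx1 C52S livers, against 15.2%, 12.6% and 23.4% in WT livers. For both genes the groups were separated, Cyp3a11 downward and Cyp3a25 upward. The difference in the log2 ratio of a member to the rest of its family was -0.90 for Cyp3a11 and 1.13 for Cyp3a25, each with p = 0.1 by the exact two-sided permutation test and 0.45 after Benjamini-Hochberg adjustment over the 9 members. Since Cyp3a11 and Cyp3a25 make up most of the Cyp3a sum, their shares mirror each other and are 1 observation. In FPKM the shares of the other 7 members overlapped between the groups, all 5 Cyp2d members among them. On TMM-scaled CPM the share of Cyp3a59 was separated as well, upward, with a difference of 0.62 in the log2 ratio.

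**Figure D3:**
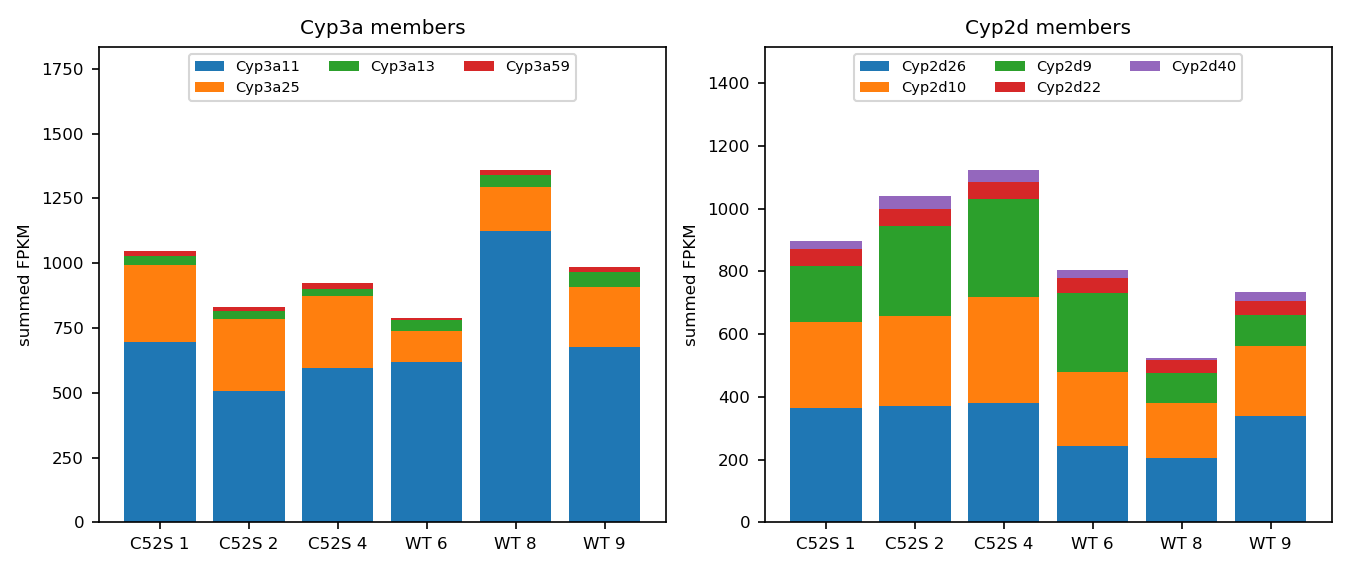
FPKM of the members stacked in each library, Cyp3a members on the left and Cyp2d members on the right, with Prdx1 C52S libraries (C52S) left of WT libraries. The Cyp3a sum is highest in WT 8, where Cyp3a25 takes 12.6% of it, and the Cyp2d sum is between 897 and 1123 FPKM in Prdx1 C52S libraries and between 525 and 803 FPKM in WT libraries.

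Ratios of 2 members within a library do not depend on scaling between libraries. All 16 pairs within a family were computed, an addition made after the values were seen. The ratio of Cyp3a25 to Cyp3a13 was 8.09, 8.59 and 9.76 in Prdx1 C52S livers, against 2.77, 3.71 and 3.89 in WT livers. The ratio of Cyp3a11 to Cyp3a25 was 2.38, 1.84 and 2.15 in Prdx1 C52S livers, against 5.13, 6.56 and 2.94 in WT livers. Both ratios were separated between the groups, with log2 differences of 1.36 and -1.13. Cyp3a11 to Cyp3a59 and Cyp3a13 to Cyp3a59 were separated as well, both lower in Prdx1 C52S livers, by log2 differences of -0.73 and -0.96. Each of these 4 had p = 0.1 by the exact two-sided permutation test and 0.4 after Benjamini-Hochberg adjustment over the 16 pairs. All 4 set Cyp3a25 or Cyp3a59 against Cyp3a11 or Cyp3a13, so they are not separate observations. The share of all gene pairs with separated groups was not computed. None of the 10 Cyp2d pairs was separated, and the ratio of Cyp2d26 to Cyp2d10 averaged 1.26 ± 0.11 in Prdx1 C52S and 1.24 ± 0.26 in WT livers (SD, n = 3 each).

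**Figure D4:**
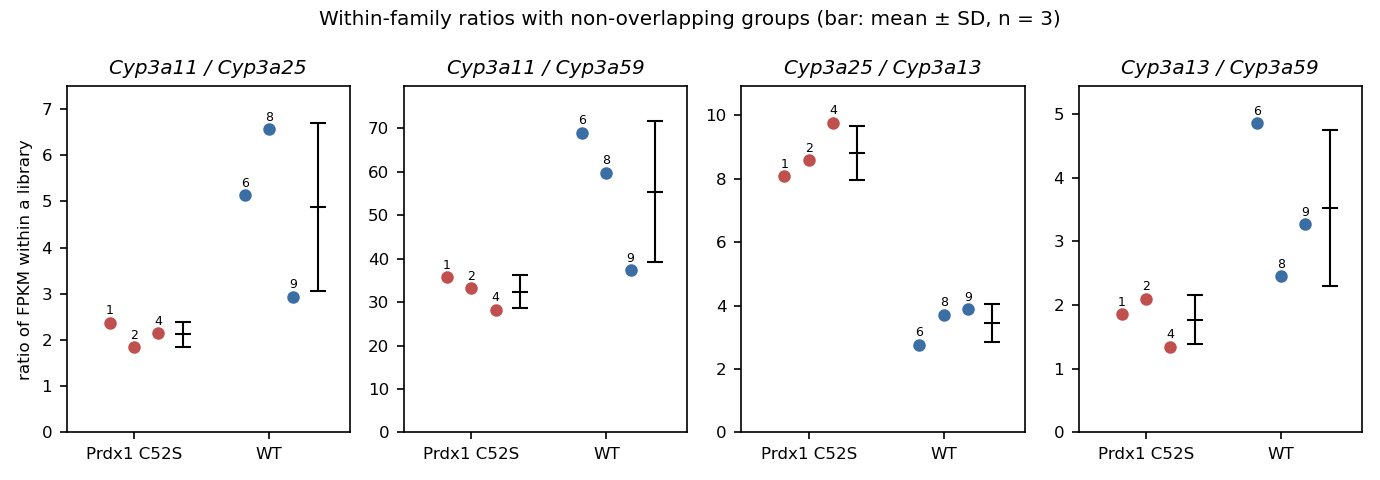
Ratio of FPKM within each library for the 4 pairs of members whose groups were separated, on an axis from 0, with Prdx1 C52S libraries left of WT libraries, points numbered by replicate and bars for mean ± SD (n = 3). Cyp3a25 to Cyp3a13 lies between 8.09 and 9.76 in Prdx1 C52S libraries and between 2.77 and 3.89 in WT libraries, and the other 3 ratios are lower in Prdx1 C52S libraries. The rest of the 16 pairs computed overlapped between the groups and are not shown.

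Genes that supply P450 enzymes with electrons and heme were counted as a list of 14. At unadjusted p under 0.05, 9 were higher, against 11.5% of all genes, and 1 was lower, against 14.8%, in Prdx1 C52S livers; 0 passed the adjusted threshold, and the list's median log2 fold change was 0.51, against -0.03 over all genes. Por, the P450 oxidoreductase itself, was the lower one, with 75.2, 52.4 and 39.6 FPKM in Prdx1 C52S livers, against 126, 115 and 135 FPKM in WT livers. Its groups did not overlap in FPKM, as for 36.7% of all genes tested in the same direction. edgeR put its log2 fold change at -0.90 (SE 0.26, adjusted p = 0.107). Cyb5b, the outer mitochondrial membrane form of cytochrome b5, went the other way, with 131, 135 and 126 FPKM in Prdx1 C52S livers, against 79.5, 62.0 and 74.4 FPKM in WT livers. edgeR put its log2 fold change at 1.13 (SE 0.20, adjusted p = 0.0680). Cyb5a, another cytochrome b5 gene of the list, had 253, 242 and 235 FPKM in Prdx1 C52S livers, against 183, 161 and 231 FPKM in WT livers. Its log2 fold change was 0.61 (edgeR adjusted p = 0.144). Pgrmc2, a heme-binding membrane protein, averaged 25.8 ± 1.58 FPKM in Prdx1 C52S and 16.5 ± 0.716 FPKM in WT livers (SD, n = 3 each), with a log2 fold change of 0.93 (edgeR adjusted p = 0.0553).

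Among 22 nuclear receptors and liver transcription factors, 4 were higher and 1 was lower at unadjusted p under 0.05, against 11.5% and 14.8% of all genes, and the median log2 fold change was 0.09. Nr1i2, which encodes PXR, had 30.0, 25.1 and 24.9 FPKM in Prdx1 C52S livers, against 36.8, 33.7 and 37.3 FPKM in WT livers. Nr1i3, which encodes CAR, had 64.1, 60.3 and 53.9 FPKM in Prdx1 C52S livers, against 31.1, 13.8 and 49.8 FPKM in WT livers. Neither overlapped in FPKM, with Nr1i2 lower, as for 36.7% of all genes tested, and Nr1i3 higher, as for 6.09%. The edgeR values were -0.16 (adjusted p = 0.545) and 1.14 (adjusted p = 0.189), and WT 8 was the lowest library for Nr1i3. Hnf4a, the hepatocyte factor whose type of repeat is capitalised in the promoters, averaged 82.2 ± 7.94 FPKM in Prdx1 C52S and 84.6 ± 8.93 FPKM in WT livers (SD, n = 3 each), with overlapping groups. The largest of the 4 higher factors by fold was Nr0b2, the bile-acid-induced repressor SHP, at 1.48 (edgeR adjusted p = 0.0842), and the lower one was Foxa3 at -0.65 (edgeR adjusted p = 0.0819).

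**Figure D5:**
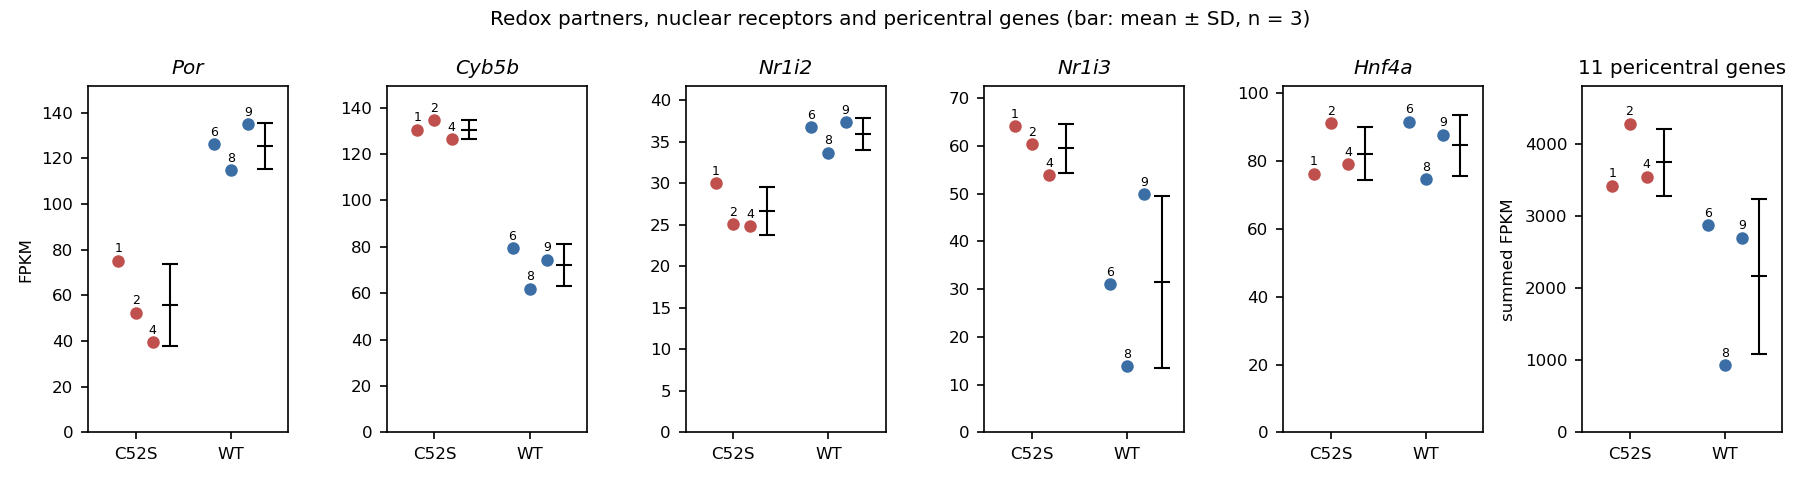
Level in FPKM of Por, Cyb5b, Nr1i2, Nr1i3 and Hnf4a, and summed FPKM of the 11 pericentral markers, in every library on axes from 0, Prdx1 C52S (C52S) left of WT, points numbered by replicate and bars for mean ± SD (n = 3). Por lies between 39.6 and 75.2 FPKM in Prdx1 C52S libraries and between 115 and 135 FPKM in WT libraries, the Hnf4a groups overlap, and WT 8 has the lowest Nr1i3 level and pericentral sum.

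Genes known to respond to PXR and CAR other than the members were counted next. Of 20, 10 were higher, against 11.5% of all genes, and 1 was lower, against 14.8%, at unadjusted p under 0.05, and the list's median was 0.76 on the log2 scale. A positive log2 fold change was found for 15 of the 20. Without WT 8, edgeR called 6 of them higher at adjusted p under 0.05, against 2.7% of all genes. Cyp2c29, a CAR-responsive arachidonate and drug hydroxylase, had 246, 339 and 260 FPKM in Prdx1 C52S livers, against 49.7, 49.2 and 98.8 FPKM in WT livers, and its log2 fold change was 2.35 (edgeR adjusted p = 0.0601). Gstm1, a glutathione transferase, had 1999, 1776 and 2388 FPKM in Prdx1 C52S livers, against 881, 971 and 1419 FPKM in WT livers. Abcc3, an export pump for conjugates, lay at 0.84 on the log2 scale (edgeR adjusted p = 0.0819), and Gadd45b, an early CAR-responsive stress gene, was the lower one at -1.93 (edgeR adjusted p = 0.0853). These 4 genes were named for having the smallest p in the list. Outside that choice, the list's other negative log2 fold changes were -0.67 for Cyp2b10, -0.60 for Abcb1a, -0.57 for Cyp2c55 and -0.38 for Akr1b7. Without WT 8, Cyp2b10 lay at -0.09 and Cyp2c55 at 0.36. Cyp2b10 was low, averaging 0.479 FPKM in Prdx1 C52S and 0.981 FPKM in WT livers.

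Of 60 other P450 genes, among them the pericentral markers Cyp2e1 and Cyp1a2, 22 were higher and 4 lower at unadjusted p under 0.05 (11.5% and 14.8% of all genes), 48 had a positive log2 fold change, and the median was 0.62, or 0.38 without WT 8. Cyp2a5, a coumarin hydroxylase, had 544, 405 and 543 FPKM in Prdx1 C52S livers, against 93.4, 171 and 161 FPKM in WT livers. Cyp4f18, a leukotriene hydroxylase of myeloid cells, averaged 0.980 ± 0.0806 FPKM in Prdx1 C52S and 3.74 ± 0.827 FPKM in WT livers (SD, n = 3 each). Cyp2r1, a vitamin D 25-hydroxylase, lay at 1.10 on the log2 scale (edgeR adjusted p = 0.0711). The difference between the members and these genes was not tested.

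Since Cyp2d9 is male-dependent, sex-dependent genes were counted too. Of 11 male-biased liver genes tested, 2 were higher and 1 was lower at unadjusted p under 0.05, against 11.5% and 14.8% of all genes, so these counts lie near the background. Yet 8 of the 11 had a positive log2 fold change. The list's median was 1.01, or 0.73 without WT 8, against -0.03 over all genes. Ugt2b38, a glucuronosyltransferase, lay at 1.11 on the log2 scale (edgeR adjusted p = 0.0587). Elovl3, a fatty acid elongase, had 19.3, 53.7 and 62.3 FPKM in Prdx1 C52S livers, against 14.1, 5.43 and 6.27 FPKM in WT livers, and Selenbp2 had 11.4, 14.0 and 24.5 FPKM in Prdx1 C52S livers, against 135, 92.8 and 35.7 FPKM in WT livers. Of 10 female-biased genes tested, 0 were higher and 1 was lower, and of 8 growth hormone signalling genes 1 was higher and 2 were lower. Their median log2 fold changes were -0.22 and 0.02, or 0.29 and -0.07 without WT 8.

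Cell type markers were counted in the same way, beside 11.5% of all genes higher and 14.8% lower at unadjusted p under 0.05. All 11 pericentral markers had a positive log2 fold change, 5 at unadjusted p under 0.05, with a median of 1.01, or 0.68 without WT 8. All 10 cholangiocyte markers were lower at unadjusted p under 0.05, with a median of -2.93, or -1.57 without WT 8, and 4 of 5 macrophage markers were lower, with a sum of 133 to 161 FPKM in Prdx1 C52S libraries and 329 to 375 FPKM in WT libraries. Of 7 markers of Kupffer cells, the resident macrophages of liver, 1 was lower and 0 were higher, 5 had a positive log2 fold change, and the median was 0.21, or -0.28 without WT 8. Of 6 stellate cell markers, 3 were lower and 0 higher, with a median of -0.47. Of 9 hepatocyte markers, 2 were higher and 0 lower, with a median of 0.34, and of 10 periportal markers 2 were higher and 2 lower. The part of these markers in the members' differences was not tested. WT 8 was the lowest library for Cyp2d26, Cyp2d10, Cyp2d22, Cyp2d9 and Cyp2d40 and the highest for Cyp3a11.

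The genes most like a member across the 6 libraries were sought among 3320 genes with a mean of at least 10 FPKM, by Pearson's r of log2 CPM over both groups together, as a description. For Cyp3a11 they were Noct (r = 0.97), a clock-controlled deadenylase-family protein, Atp1b1 (r = 0.96), a sodium pump subunit, and Gm11843 (r = 0.92). Each was highest in WT 8, where Noct had 35.0 FPKM, against 3.09 to 7.95 FPKM in Prdx1 C52S libraries and 3.89 to 5.86 FPKM in WT 6 and WT 9. For Cyp2d10 they included Qprt, an enzyme of NAD synthesis (r = 0.997), and Ttr, the thyroxine carrier (r = 0.996). Ttr had 2883, 3171 and 3428 FPKM in Prdx1 C52S livers, against 2730, 2350 and 2668 FPKM in WT livers, and as for Cyp2d10 the groups did not overlap and WT 8 was the lowest library. Among members, Cyp2d10 was most like Cyp2d22 (r = 0.97), Cyp2d26 and Cyp2d40 (r = 0.93 each) and Cyp2d9 (r = 0.89). It was less like Cyp3a25 (r = 0.79) and ran against Cyp3a11 (r = -0.61). The libraries share the genotype contrast and WT 8, which enter every one of these values.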

How the data were processed

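Poly(A) RNA from 6 livers' libraries was sequenced with 150-base paired reads and molecular identifiers in the adapters, per the labels' protocols. Tools named without role or order in the submitters' processing notes are StringTie 1.3.4d, HISAT2 2.0.4, UMI-tools, cutadapt 1.9, edgeR and DESeq2. Those notes name the build mm9, while the deposited coordinates equal those of GRCm38. The authors deposited 1 table of genes with FPKM and estimated counts per library; the length behind FPKM is not given in the sources used here. A fragment was worth about 4 of the deposited counts, so counts overstate depth. The members, gene lists and rule for named genes (all members, the relatives at 1 FPKM or more, and the few genes of each list with the smallest p) were chosen with earlier results of these data known.

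Estimated counts were rounded and fitted with edgeR 4.0.16 (R 4.3.3; filterByExpr, TMM, robust quasi-likelihood, two-sided) on 3 Prdx1 C52S against 3 WT libraries, with no covariate, and Benjamini-Hochberg adjustment over 18931 genes. DESeq2 1.42.0 and limma 3.58.1 served as alternatives. Sums, shares and ratios used exact permutation tests (scipy 1.17.1), which cannot go below 0.1 here. Coding and promoter sequences were aligned with biopython 1.88. The fit was tested on simulated data with 200 changed genes. One gene that the rule for likeness to Cyp2d10 names is not reported here.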

Additional observations from a re-analysis of the deposited data

How the results depend on the processing

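No paired analysis was possible because the groups share no replicate number. Genes called higher and lower by edgeR at adjusted p under 0.05 numbered 0 and 0 with all libraries, and 2176 and 2807 at unadjusted p under 0.05. The adjusted counts were 1399 and 1723 with DESeq2, 1023 and 1006 with voom weights, 35 and 125 with library totals, 105 and 91 without a filter, 43 and 40 with counts divided by 4, 8 and 11 with quantile scaling, 39 and 94 on log2(FPKM + 1), 59 and 221 on log2(FPKM + 0.1), and 0 to 522 and 0 to 375 with 1 library left out; the cause was not tested. Members called numbered 4 with DESeq2 and with voom, and 0 to 2 with 1 library left out. Members with a positive value numbered 7, and 8 with voom or without WT 8. The Cyp3a11 log2 fold change was -0.10, turned to 0.063 with voom weights, was -0.43 with library totals, -0.49 with quantile scaling and -0.38 on either FPKM scale, and ran from -0.22 to 0.082 with 1 library left out. The summed Cyp3a difference was 0.028 on TMM-scaled CPM and ran from -0.32 to 0.076 with 1 library left out. The summed Cyp2d difference was 0.88 on TMM-scaled CPM and ran from 0.40 to 0.71 with 1 library left out, where p cannot go below 0.2. The number of member shares with separated groups was 2, 3 on TMM-scaled CPM, and 2 to 4 with 1 library left out. With 1 library left out, the log2 ratio to the rest of the family ran from -0.0070 (without WT 8) to 0.83 for Cyp2d40 and from -0.35 to 0.15 (without WT 9) for Cyp2d26. The median of all genes moved by scaling, to -0.34 with library totals, -0.15 on log2(FPKM + 1) and -0.28 on log2(FPKM + 0.1). The lowest member count was 919, at about 4 counts a fragment, and 3 libraries a group limit the precision.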
